A study of Homo sapiens with 4 samples.

Results

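Respiratory complexes III, IV and V, with the electron carrier cytochrome c, were examined as 53 genes of the 19192 listed for each library. Genes were taken by symbol: names that begin with UQCR, COX4 to COX8, ATP5, MT-CO, MT-CYB or MT-ATP, together with CYC1 and CYCS. Of the 53, 6 are encoded by mitochondrial DNA and 47 by nuclear DNA. Complex III held 1 mitochondrially encoded and 10 nuclear-encoded genes, complex IV 3 and 17, and complex V 2 and 19, and the last gene is CYCS. By role, 40 are core subunits or CYCS itself, 6 are tissue-restricted isoforms, 4 are copies or a readthrough transcript, and 3 are related genes that match by name (COX7A2L, ATP5S and ATP5SL). ATP5SL is listed in current annotation as DMAC2, a complex I assembly factor.

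The cells were SW480, an established human colorectal adenocarcinoma line. They were either labelled IMP1-/-, and are written here as knockout-labelled, or wild type. IMP1, a protein that binds RNA, is the product of IGF2BP1. Each genotype had 1 library of ribosome-protected fragments (RPF, the stretches of mRNA shielded by ribosomes) and 1 of total RNA, each from 3 pooled plates of cells. No difference below could therefore be checked against replicates, and genotype, clone and culture cannot be told apart. For wild-type RNA the cell-line label says SW840, where all other labels say SW480.

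IGF2BP1 had 571 RNA and 149 RPF reads in knockout-labelled cells, against 598 and 285 in wild type. Its RNA change on the log2 scale was 0.08 (95% counting interval −0.08 to 0.25) and its RPF change −0.93 (−1.23 to −0.65). Its footprints were lower while its RNA did not differ beyond counting error, and counts per gene do not show whether the protein was lost. Libraries held 3778316 to 5551479 reads. Epithelial markers summed to 5670 and 20300 CPM (counts scaled to the library total) in knockout-labelled RNA and RPF, and to 8330 and 25400 CPM in wild type. Within that list KRT20 had 0 reads in all 4 libraries, CDX1 and LGR5 had 9 or fewer, and VIL1 had 2 and 0 reads in knockout-labelled RNA and RPF against 160 and 335 in wild type. KRT8, KRT18 and CDX2 also had fewer RNA and RPF reads in knockout-labelled cells, and KRT8 and KRT18 held most of the sum. CDH1 went the other way, with 286 RNA and 275 RPF reads in knockout-labelled cells against 83 and 88 in wild type. EPCAM had 1143 and 1542 against 1081 and 1348, and KRT19 had 1906 and 6166 against 2285 and 5230. Leukocyte markers summed to 44.8 and 52.4 CPM in knockout-labelled RNA and RPF, with 5 of 6 at 0 and all of it from CD68, and to 7.57 and 1.85 CPM in wild type. PTPRC and CD3E were at 0 in all 4 libraries. Of 8 mesenchymal markers 6 were listed, at 5.47 CPM or less in sum. The 4 endothelial markers summed to 180 and 13.5 CPM in knockout-labelled RNA and RPF against 365 and 1.59 CPM in wild type. The part of these differences in the results below was not tested.

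Complex III passes electrons from ubiquinol to cytochrome c, complex IV passes them on to oxygen, and complex V uses the resulting proton gradient to make ATP. Each is built from subunits of both genomes: the mitochondrial DNA supplies a few hydrophobic, often catalytic, subunits translated on mitochondrial ribosomes inside the organelle, while the rest are translated on cytosolic ribosomes and imported. Assembly needs both sets, so the supply of one can be set against the other. In intestinal epithelium, as in most tissues, these complexes provide ATP by oxidative phosphorylation.

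Footprints on all 6 mitochondrially encoded mRNAs differed between the genotypes. Of the 6, 5 are shown by the first 36 bases of their reading frames (start codon in capitals, GRCh38, plus strand, bases 5′ to 3′). MT-CYB is not shown.
MT-CO1, chrM:5904-5939: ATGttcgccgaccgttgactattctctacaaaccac
MT-CO2, chrM:7586-7621: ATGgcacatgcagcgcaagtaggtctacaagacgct
MT-CO3, chrM:9207-9242: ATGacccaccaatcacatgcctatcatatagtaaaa
MT-ATP6, chrM:8527-8562: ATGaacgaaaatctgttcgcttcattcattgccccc
MT-ATP8, chrM:8366-8401: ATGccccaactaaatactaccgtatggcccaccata

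MT-ATP8 and MT-ATP6 are read from 1 mRNA in overlapping frames. The bases annotated to both genes are in capitals here, 46 of them, with 20 bases on each side. A read within the capitals belongs to both genes, so the split of reads between these 2 genes is uncertain.
MT-ATP8 and MT-ATP6 junction, chrM:8507-8592: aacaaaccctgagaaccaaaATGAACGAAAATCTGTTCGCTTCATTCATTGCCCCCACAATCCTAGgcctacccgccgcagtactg

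All 6 mitochondrially encoded subunits had more footprints in knockout-labelled than in wild-type cells, by 2.78-fold to 5.43-fold, while their RNA differed by less than 1.5-fold. They include cytochrome b of complex III, the catalytic subunits of complex IV and the proton-channel subunit of complex V. The nuclear-encoded members of the same complexes showed no such shift: their footprints summed to 0.98 of wild type. Changes are log2 ratios of knockout-labelled over wild type after scaling, with 95% intervals that cover counting error only. A gene was called higher or lower at 1.5-fold or more with an interval that left out no change. A gene counted as measured when its 2 libraries of a kind held 50 or more reads together.

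MT-CYB (chrM:14747-15887), cytochrome b, the electron-carrying membrane subunit of complex III, had 817 RPF and 5151 RNA reads in knockout-labelled cells, against 150 and 6626 in wild type. The RPF change was 2.44 (2.19 to 2.71), or 5.43-fold, beside an RNA change of −0.21. This was the largest RPF change among the measured members.

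MT-CO1 (chrM:5904-7445), which holds the oxygen-reducing centre of complex IV, had 6113 RPF and 50302 RNA reads in knockout-labelled cells, against 1779 and 56492 in wild type. Its RPF change was 1.78 (1.70 to 1.86) with an RNA change of −0.02, so nearly all of the difference was in footprints. MT-CO2 (chrM:7586-8269), which takes electrons from cytochrome c, had 2061 RPF and 12340 RNA reads in knockout-labelled cells, against 555 and 15667 in wild type. Its RPF change was 1.89 (1.76 to 2.03). MT-CO3 (chrM:9207-9990), the remaining core subunit, had 559 RPF and 5510 RNA reads in knockout-labelled cells, against 171 and 8039 in wild type. The RPF change of MT-CO3 was 1.71 (1.46 to 1.96), and its RNA change of −0.39 was the lowest of the 6. The 3 complex IV subunits therefore had similar RPF changes, with overlapping intervals.

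MT-ATP6 (chrM:8527-9207), subunit a of ATP synthase, through which protons pass, had 252 RPF and 1647 RNA reads in knockout-labelled cells, against 65 and 2205 in wild type. Its RPF change was 1.95 (1.56 to 2.37). MT-ATP8 (chrM:8366-8572), a small membrane subunit, had 179 RPF and 479 RNA reads in knockout-labelled cells, against 64 and 426 in wild type. Its RPF change of 1.48 (1.06 to 1.92) was the lowest of the 6, and it was the only one with more RNA in knockout-labelled cells (0.32). The RPF intervals of these partners, which share an mRNA, overlapped. Their RNA intervals did not, at −0.36 to −0.18 for MT-ATP6 and 0.13 to 0.51 for MT-ATP8.

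**Figure D1:**
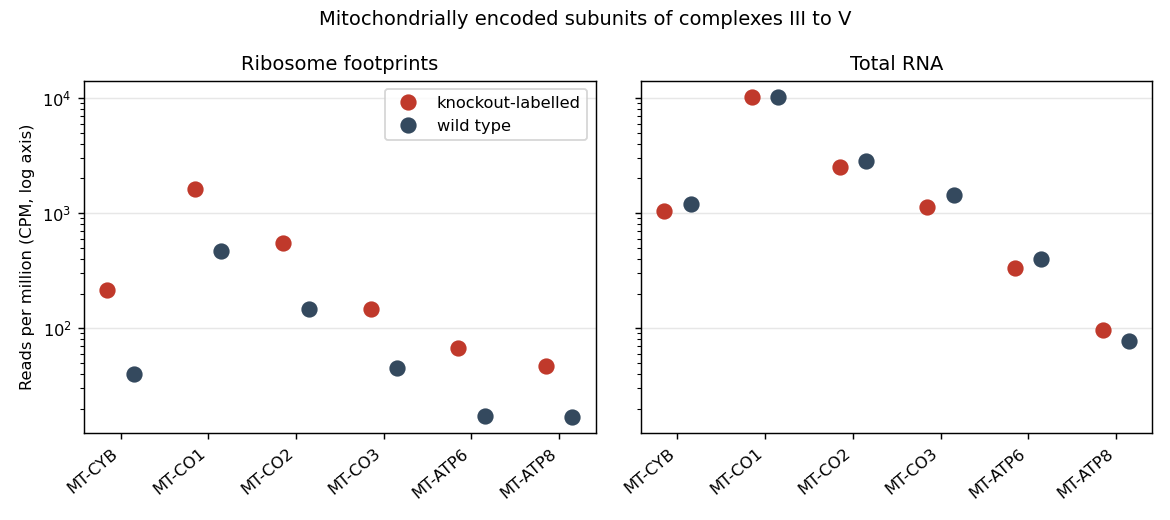
CPM of each of the 6 mitochondrially encoded members in the 2 RPF and the 2 RNA libraries, on log axes, with knockout-labelled cells left of wild type. Each point is 1 library; the footprint points of knockout-labelled cells lie above those of wild type for all 6 genes, while the RNA points lie close together, from 97.1 CPM for MT-ATP8 to 10200 CPM for MT-CO1 in knockout-labelled RNA.

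Across all genes, 19.0% of the 9794 measured in RPF were called higher and 20.1% lower, whereas all 6 mitochondrially encoded members were called higher. In RNA, 16.2% of 10875 genes were called higher and 17.8% lower, and 0 of the 6 were called either way. An RPF change at or above that of MT-ATP8, the smallest of the 6, was seen in 363 genes, or 3.71% of those measured. Among the 6397 genes whose RNA differed by less than 1.5-fold, 95 had so large an RPF change (1.49%). Both counts include the 6 members themselves, and the mitochondrially encoded MT-ND3, MT-ND5 and MT-ND6. In bulk libraries, fewer cells of a type and less RNA per cell cannot be told apart.

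Translational efficiency (TE) is the RPF level over the RNA level of a gene, and its change is RPF change minus RNA change. All 6 mitochondrially encoded members were higher in TE, against 15.7% higher and 13.9% lower of the 9598 genes measured in both kinds. Their median TE change was 2.09, with MT-CYB at 2.65 (2.40 to 2.91), MT-CO3 and MT-CO2 near the median, MT-ATP6 at 2.22 and MT-CO1 at 1.80. MT-ATP8 was lowest at 1.16 (0.70 to 1.61), and its interval lay below that of MT-ATP6 (1.81 to 2.62). As a level, 20.7 RPF CPM were counted for each 100 RNA CPM of MT-CYB in knockout-labelled cells and 3.33 in wild type. For MT-CO1 there were 15.9 in knockout-labelled cells and 4.62 in wild type.

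Even so, footprints on these mRNAs stayed scarce relative to their RNA in both genotypes. The median log2 TE level of the 6 was −2.30 in knockout-labelled cells and −4.48 in wild type, against 1.14 in knockout-labelled cells and 1.01 in wild type for the 41 measured nuclear-encoded members. These ratios are not corrected for length. Per kilobase of transcript, the median RNA level of the mitochondrially encoded members was 1170 CPM in knockout-labelled cells and 1450 CPM in wild type. For the nuclear-encoded it was 91.6 CPM in knockout-labelled cells and 97.5 CPM in wild type. Per kilobase of coding sequence, the median RPF level of the mitochondrially encoded was 209 CPM in knockout-labelled cells and 69.7 CPM in wild type, and that of the nuclear-encoded was 513 CPM in knockout-labelled cells and 445 CPM in wild type. On both length-corrected scales the mitochondrially encoded members thus had more RNA and fewer footprints than the nuclear-encoded at the median. Footprints of 18 to 34 nt were selected, and how well that range keeps fragments of mitochondrial ribosomes in each library was not tested.

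**Figure D2:**
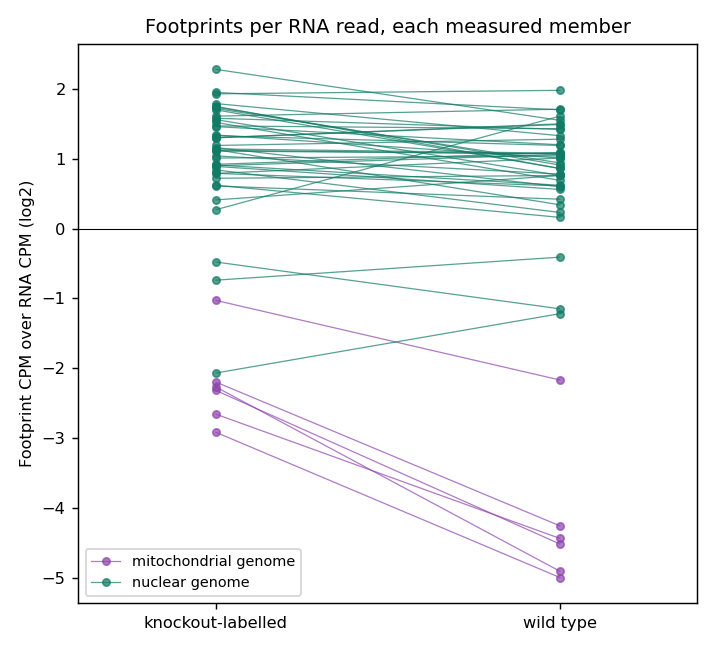
Log2 of RPF CPM over RNA CPM for each measured member, with knockout-labelled cells on the left and wild type on the right, each line joining 1 gene. The 6 mitochondrially encoded members lie between −2.92 and −1.03 in knockout-labelled cells and between −5.00 and −2.17 in wild type, and most nuclear-encoded members lie above 0 in both.

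The same count for whole complexes gives the balance between the genomes. Nuclear-encoded sums take in all members of a complex, with the copies, the readthrough and the related genes, so some reads may be counted more than once. In RPF, complex III had 10.7 mitochondrially encoded reads per 100 nuclear-encoded reads in knockout-labelled cells and 2.03 in wild type, a 5.28-fold difference (4.42 to 6.30). Complex IV had 75.5 in knockout-labelled cells and 23.6 in wild type, a 3.20-fold difference (3.04 to 3.37). In complex V the values were 2.02 in knockout-labelled cells and 0.551 in wild type, a 3.66-fold difference (3.00 to 4.45). In RNA the same ratios differed little between the genotypes: complexes III, IV and V had 114, 1170 and 10.9 in knockout-labelled cells, against 113, 1060 and 11.7 in wild type. The shift in balance was thus in footprints in all 3 complexes, and the interval for complex III lay above that for complex IV.

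Summed footprints show which side moved. Mitochondrially encoded members took 9981 reads, or 0.264% of the knockout-labelled RPF library, and 2784 reads, or 0.0736% of the wild-type one, a 3.58-fold ratio (3.44 to 3.74). Nuclear-encoded members of the 3 complexes took 40571 reads in knockout-labelled cells and 41400 in wild type, a ratio of 0.98 (0.966 to 0.993). By complex, the nuclear-encoded RPF ratios were 1.03 for III, 1.09 for IV and 0.914 for V. Their RNA ratios were 0.854, 0.859 and 0.965, so none of the nuclear-encoded sums differed by 1.5-fold. In complex V the single gene ATP5G3 held 7635 of 19504 RNA reads in knockout-labelled cells and 7767 of 22453 in wild type.

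**Figure D3:**
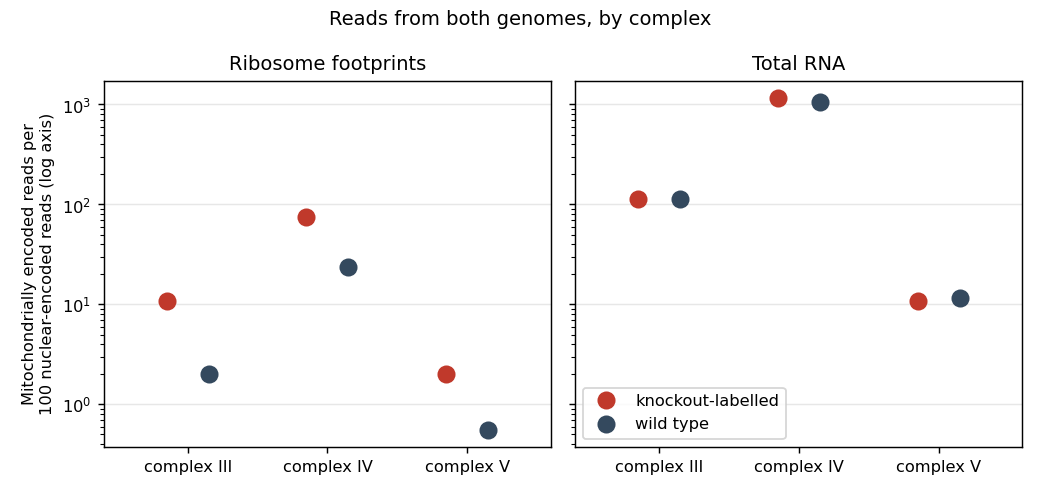
Mitochondrially encoded reads per 100 nuclear-encoded reads for complexes III, IV and V, in RPF (left panel) and RNA (right panel) on a shared log axis, with knockout-labelled cells left of wild type and 1 library per point. Knockout-labelled footprints lie above wild type in each complex (10.7 in knockout-labelled cells and 2.03 in wild type for complex III), while the RNA points nearly coincide.

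The other mitochondrially encoded mRNAs, all for complex I, moved in the same direction for the most part. Of 7, 6 were measured in RPF; 5 of these were higher and 0 lower, and their median was 1.71. MT-ND5, a proton-pumping subunit, had 452 RPF reads in knockout-labelled cells and 76 in wild type (2.56). MT-ND1, which lies at the quinone site, was not called, at 75 reads in knockout-labelled cells and 64 in wild type (0.23). MT-ND4L, with 16 in knockout-labelled cells and 32 in wild type, had too few to be measured. Over all 13 mRNAs the share of RPF reads was 0.290% in knockout-labelled cells and 0.0826% in wild type, while RNA reads numbered 95049 in knockout-labelled cells and 111217 in wild type.

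Other reads of mitochondrial sequence moved less. The 11 MTRNR2L genes, which are copies in the nucleus of a mitochondrial ribosomal RNA, took 3.60% of knockout-labelled and 2.90% of wild-type RPF reads, a 1.24-fold ratio (1.23 to 1.25). Their part in the results was not tested. Nuclear copies also exist of the mRNAs themselves. Of all 30-base words in MT-CO1, 67.9% also occur in another annotated gene, and the shares were 64.7% for MT-ATP6, 51.6% for MT-CO2, 47.2% for MT-ATP8 and 45.8% for MT-CO3. For MT-CYB the share was 5.40%, beside an RPF change of 2.44. The part of shared sequence in these results was not tested.

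Among nuclear-encoded members, RPF changes ran from −1.13 to 0.82, below those of all 6 mitochondrially encoded members. Of 47, 41 were measured in each kind; COX4I2, COX6A2, COX6B2, COX7A1, COX7B2 and COX8C had too few reads. In RNA 0 were higher and 6 lower, in RPF 2 higher and 6 lower, and in TE 10 higher and 2 lower. Set beside all genes, that is a smaller share called in RNA and RPF, and a larger share called higher in TE (10 of 41, beside 15.7%). The 10 include a related gene (COX7A2L) and the copies UQCRHL and ATP5EP2, which share sequence with UQCRH and ATP5E. Among the 34 nuclear-encoded core subunits, CYCS included, 7 were higher in TE and 1 lower. The share higher was nearer to that over all genes, while the share lower was further below it (13.9%). Median changes were −0.20 in RNA, 0.05 in RPF and 0.20 in TE, against −0.01, 0.00 and 0.03 for all genes.

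**Figure D4:**
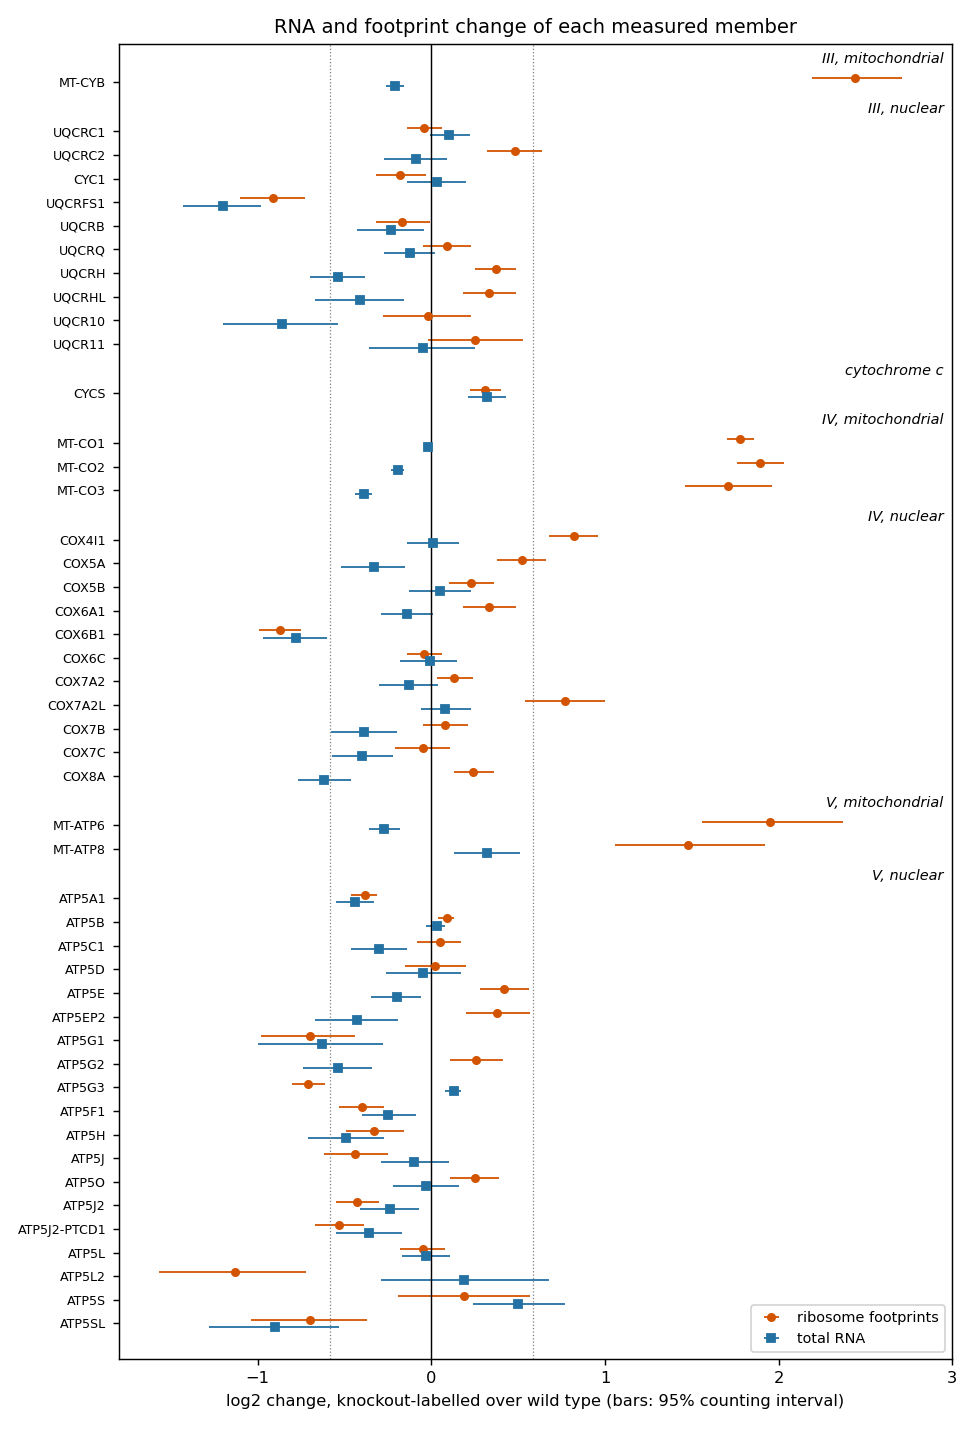
Log2 change of knockout-labelled over wild type for every measured member, grouped by complex and genome, in RPF (circles) and RNA (squares), with 95% counting intervals as bars and dotted lines at 1.5-fold. The 6 mitochondrially encoded members lie at 1.48 or above in RPF, while the nuclear-encoded lie between −1.13 and 0.82.

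In complex III, 10 nuclear-encoded members were measured, and the Rieske protein stood out. UQCRFS1 (chr19:29205321-29213541, minus strand), the Rieske iron-sulfur protein that takes electrons from ubiquinol, had 227 RNA and 359 RPF reads in knockout-labelled cells, against 580 and 677 in wild type. Its RNA change was −1.20 (−1.43 to −0.98) and its RPF change −0.91 (−1.10 to −0.73), the lowest of any core subunit in both. It thus fell in footprints while MT-CYB, its partner in the electron path, rose. The third redox subunit, cytochrome c1 (CYC1), had 548 RNA and 724 RPF reads in knockout-labelled cells, against 597 and 819 in wild type, with changes of 0.03 and −0.18. A processed pseudogene holds 17.1% of the 30-base words of UQCRFS1, and CYC1 shares none.

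Of the 10 nuclear-encoded complex III members measured, 3 were higher in TE and 0 lower, beside 15.7% and 13.9% of all genes. The 3 were the small subunits UQCR10 and UQCRH and the copy UQCRHL. Among the 9 core subunits 2 were higher. UQCR10 fell in RNA, with 118 reads in knockout-labelled cells and 239 in wild type (−0.86), and had an RPF change of −0.02. UQCRH, the acidic hinge protein that helps cytochrome c1 meet cytochrome c, had 507 RNA and 1306 RPF reads in knockout-labelled cells, against 818 and 1009 in wild type. Its TE change was 0.91 (0.71 to 1.11). UQCRHL, its intronless copy, had 812 RPF reads in knockout-labelled cells and 644 in wild type, and a TE change of 0.74. The core proteins UQCRC1 and UQCRC2 were not called, with RPF changes of −0.04 and 0.48, and UQCRB, UQCRQ and UQCR11 lay between −0.17 and 0.25 in RPF.

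UQCRH (chr1:46303631-46316776, plus strand) and UQCRHL (chr1:15807169-15809348, minus strand) cannot be treated as independent. Their coding sequences are 276 nt each and differ at 4 bases (98.6% identity). Coding bases 138 to 253 are shown, with the 4 differing bases in capitals, to show how little a short footprint has to tell them apart. The longest identical run is 157 nt, so many footprints fit both genes.
UQCRH: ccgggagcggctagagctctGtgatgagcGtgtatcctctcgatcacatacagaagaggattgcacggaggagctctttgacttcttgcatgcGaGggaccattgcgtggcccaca
UQCRHL: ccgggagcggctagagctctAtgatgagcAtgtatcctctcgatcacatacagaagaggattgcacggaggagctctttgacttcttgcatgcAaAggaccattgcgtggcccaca

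Cytochrome c (CYCS), which carries electrons from complex III to complex IV, had 1359 RNA and 2098 RPF reads in knockout-labelled cells, against 1210 and 1693 in wild type. The changes of 0.32 and 0.31 matched in size, were below the 1.5-fold rule, and left a TE change of −0.01.

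In complex IV, 11 of 17 nuclear-encoded members were measured. COX4I1 (chr16:85799684-85807002, plus strand), the largest nuclear-encoded subunit and a site of regulation by ATP, had 673 RNA and 1129 RPF reads in knockout-labelled cells, against 743 and 639 in wild type. Its RNA change was 0.01 and its RPF change 0.82 (0.68 to 0.96), the highest of any measured nuclear-encoded member. COX6B1 (chr19:35648825-35658726, plus strand), which faces the intermembrane space, went the other way, with 367 RNA and 856 RPF reads in knockout-labelled cells, against 700 and 1561 in wild type. Its changes were −0.78 in RNA and −0.87 in RPF (−0.99 to −0.75). COX4I1 was thus called in RPF with no RNA call, and COX6B1 in both, with a TE change of −0.09.

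Of the 11 nuclear-encoded complex IV members measured, 4 were higher in TE and 0 lower, beside 15.7% and 13.9% of all genes, with a median of 0.47. Besides COX4I1 the 4 were COX5A, COX8A and COX7A2L. COX5A, an early-assembling subunit, had 398 RNA and 1022 RPF reads in knockout-labelled cells, against 557 and 713 in wild type, with a TE change of 0.85. COX8A had 540 RNA and 1349 RPF reads in knockout-labelled cells, against 920 and 1141 in wild type, and changes of −0.62 in RNA and 0.86 in TE. It shares 30.8% of its 30-base words with an overlapping gene, so its reads are less certain. COX7A2L, which joins complexes III and IV into supercomplexes, had 759 RNA and 418 RPF reads in knockout-labelled cells, against 797 and 245 in wild type, and rose in RPF (0.77) and TE (0.69). COX5B, COX6A1, COX6C, COX7A2, COX7B and COX7C were not called in any quantity, and their RPF changes ran from −0.05 to 0.33.

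Of the paralog families in complex IV, 1 form held nearly all reads in each. COX4I2, the form linked to lung and low oxygen, had 0 RNA reads in either genotype, and 3 RPF reads in knockout-labelled cells and 4 in wild type. COX6A2 and COX7A1, the heart and muscle forms, and COX8C, a testis form, had 0 reads in all 4 libraries. A count of 0 allows up to 0.608 CPM in knockout-labelled RNA and 0.54 CPM in wild-type RNA, and up to 0.794 CPM in knockout-labelled RPF and 0.793 CPM in wild-type RPF. Their ubiquitous counterparts COX6A1, COX7A2 and COX8A were at 135, 109 and 109 RNA CPM in knockout-labelled cells, and at 147, 118 and 166 CPM in wild type.

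COX6B2, the testis form of COX6B, was the exception to a count near 0. It had 30 RNA and 15 RPF reads in knockout-labelled cells, against 8 and 2 in wild type, which is below the 50-read minimum. Of its 30-base words 33.3% also occur in another gene, and 446 exonic bases overlap another gene on the same strand, so its reads are less certain. COX6B1, its ubiquitous counterpart, was lower in both kinds, yet per kilobase of transcript it was still at 171 RNA CPM in knockout-labelled cells, where COX6B2 was at 3.13. In wild type COX6B1 was at 290 and COX6B2 at 0.741 on that scale. COX7B2 had 0 RNA and 7 RPF reads in knockout-labelled cells, and 1 of each in wild type.

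In complex V, no nuclear-encoded member was called higher in RNA or RPF, while 2 of 19 were lower in RNA and 4 of 19 in RPF. Over all genes 16.2% were higher and 17.8% lower in RNA, and 19.0% were higher and 20.1% lower in RPF. The share lower in RPF was thus near that of all genes. The median RPF change was −0.33 over the 19, which include copies, the readthrough and related genes. Over the 14 core subunits it was −0.19, with 2 lower in RPF. The F1 head and central stalk, where ATP is made, held 5 core subunits with RPF changes from −0.38 to 0.42. ATP5B, the catalytic beta subunit, was at 2010 RPF CPM in knockout-labelled cells and 1890 CPM in wild type (0.09). ATP5A1, the alpha subunit, had an RPF change of −0.38, and ATP5C1 and ATP5D lay at 0.05 and 0.02. ATP5E, the epsilon subunit, was called in TE alone (0.62), with ATP5EP2, a copy of it, at 0.81. ATP5EP2 holds 37.0% of its 30-base words in common with ATP5E, so these are not separate measurements. ATP5E also overlaps TUBB1 on the opposite strand over 1188 exonic bases, and no source used here says whether counting was by strand.

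The peripheral stalk, which holds the head still, had 0 of 4 subunits called, with RPF changes from −0.44 (ATP5J) to 0.25 (ATP5O). The membrane subunits ATP5J2 and ATP5L, f and g, also had no call, at −0.43 and −0.05 in RPF. ATP5L2, a copy of the g subunit, fell in RPF (−1.13) and TE (−1.32) on low counts, 69 RPF reads in knockout-labelled cells and 152 in wild type. The readthrough ATP5J2-PTCD1 shares 98.9% of its 30-base words with other genes, and its values are not distinct from those of ATP5J2 and PTCD1. Of the genes related by name, ATP5SL fell in RNA (−0.90) and RPF (−0.70), and ATP5S was not called.

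Subunit c, which forms the rotating ring of ATP synthase, is encoded by 3 genes that give the same mature protein after import signals are removed, and these genes differed from each other. ATP5G1 (chr17:48892817-48895869, plus strand) had 106 RNA and 186 RPF reads in knockout-labelled cells, against 183 and 303 in wild type. It fell in RNA (−0.63) and RPF (−0.70). ATP5G2 (chr12:53665183-53676398, minus strand) had 334 RNA and 844 RPF reads in knockout-labelled cells, against 538 and 705 in wild type, and was called in TE alone (0.79, 0.55 to 1.04). ATP5G3 (chr2:175176258-175184607, minus strand) had 7635 RNA and 1394 RPF reads in knockout-labelled cells, against 7767 and 2275 in wild type.

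The RPF change of ATP5G3 was −0.71 (−0.80 to −0.61) and its TE change −0.83 (−0.94 to −0.73), the lowest of any core subunit. So 2 of the 3 genes were lower in RPF, ATP5G1 together with its RNA and ATP5G3 without. Per kilobase of coding sequence, ATP5G3 was at 860 RPF CPM in knockout-labelled cells and 1400 CPM in wild type. ATP5G2 was at 524 CPM in knockout-labelled cells and 437 CPM in wild type, and ATP5G1 was at 120 CPM in knockout-labelled cells and 195 CPM in wild type. ATP5G3 therefore stayed the highest of the 3 in both genotypes. The 3 coding sequences have identical runs of 17 nt at most, so an exactly matching footprint of 18 nt or more fits only 1 of them. Of the 30-base words of ATP5G1, ATP5G2 and ATP5G3, 18.1%, 16.3% and 3.37% also occur in another annotated gene.

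**Figure D5:**
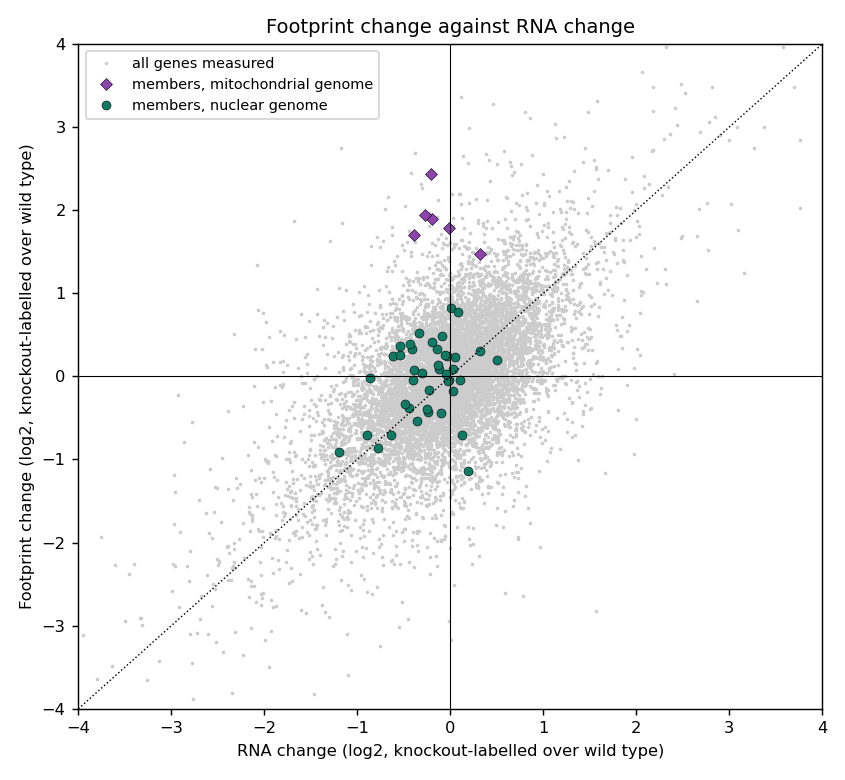
RPF change against RNA change (log2, knockout-labelled over wild type) for genes measured in both kinds, with mitochondrially encoded and nuclear-encoded members marked over all other genes in grey. The 6 mitochondrially encoded members form a column near 0 in RNA and at 1.48 or above in RPF, and 34 of the 9598 genes lie beyond the axes, which end at 4.

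Comparison lists place these values among other mitochondrial genes, and in RPF their counts stand beside 19.0% higher and 20.1% lower over all genes. The 37 nuclear-encoded complex I subunits had 5 higher and 3 lower in RPF, with a median of −0.01. Complex II, the only one with no mitochondrially encoded subunit, had 0 of 4 called in RPF and RNA, and SDHD, a membrane anchor, lower in TE (−1.01). Of 23 complex IV assembly factors, 5 were higher and 2 lower in RPF, among them COX10, which makes heme precursors for MT-CO1, at 1.30, and COA3, which stabilises newly made MT-CO1, at −0.85. Complex III assembly factors had 0 higher and 1 lower of 6 in RPF. Those listed for complex V had 0 and 1 of 5, a list that includes NUBPL, a complex I assembly factor.

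Of 75 mitochondrial ribosomal proteins, 11 were higher and 11 lower in RPF (median 0.02), where all genes had 19.0% and 20.1%. In RNA 4 of them were higher and 11 lower (median −0.13), and in TE 14 were higher and 4 lower (median 0.05). The RNA shares over all genes were 16.2% higher and 17.8% lower, and the TE shares 15.7% and 13.9%. Among 26 genes of mitochondrial transcription, RNA processing and translation, 5 were higher and 3 lower in RPF, 2 higher and 1 lower in RNA, and 2 higher and 2 lower in TE. GFM2, a ribosome recycling factor, had an RPF change of 0.89, while MTERF1, a transcription termination factor, had −1.71 and MTPAP, the mitochondrial poly(A) polymerase, −0.94. In contrast, cytosolic ribosomal proteins had 41 of 84 higher in RPF and 1 lower (median 0.57).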

How the data were processed

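Ribosome footprints and total RNA were measured in 4 libraries, 1 per genotype and kind. For 19192 genes, each with 1 Ensembl transcript, the authors deposited raw read counts. Size selection kept 18 to 34 nt for footprints and 18 to 50 nt for RNA, per the labels' protocols, which also name random molecular identifiers, ribosomal RNA depletion and 15 PCR cycles. Per the submitters' processing notes, cutadapt 1.10, Bowtie 1.1.2, HISAT2 2.1.0 and GRCh38 were used. Their roles, the annotation, the region counted, strand, reads mapping to several genes and identifier collapsing were not given in the sources used here.

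Libraries of a kind were scaled by TMM in edgeR 4.0.16 (R 4.3.3). The ratio of the knockout-labelled to the wild-type scaling was 0.9 for RNA and 1.0 for RPF. Log2 changes used a prior count of 0.5. RNA and RPF intervals are exact conditional (Clopper-Pearson) at 95%, and TE intervals come from the sum of reciprocal counts. Summed reads carry no prior. Reads after PCR are not molecules, so intervals and floors (3 counts) cover counting error only. The count model has 0 residual degrees of freedom, so no p-value is given. Coordinates, lengths and sequences are from GENCODE 29 (Ensembl 94, GRCh38), matched by transcript ID (99.9% of the listed transcripts). Symbols are the files' own, so that ATP5B is now ATP5F1B. Levels are CPM per kilobase of transcript for RNA and of coding sequence for RPF. Scripts ran under Python 3.11.15 with pandas 2.3.3 and SciPy 1.17.1, and were tested on simulated data.

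Values are given for every mitochondrially encoded member, CYC1, CYCS, called members and paralog families, and from each comparison list for at most 4 called genes per quantity. Not every gene whose symbol begins as the rule says is reported here. The members and lists were chosen with earlier results of these data known.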

Additional observations from a re-analysis of the deposited data

How the results depend on the processing

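The 9 alternatives were median-of-ratios scaling, library totals, totals without mitochondrial, MTRNR2L and the 10 most abundant genes, minimums of 1, 20 and 200 reads, a prior count of 5, a 2-fold call, and core subunits only. All 6 mitochondrially encoded members were higher in RPF and TE under each setting. At a 2-fold call, the nuclear-encoded members had 1 lower in RNA, 0 higher and 1 lower in RPF, and 0 higher and 1 lower in TE. With core subunits only, they had 1 higher in RPF, and 7 higher and 1 lower in TE. COX6B2 made 1 nuclear-encoded member higher in RNA with no filter and at 20 reads, and at 200 reads 1 was lower in TE. With no filter COX6B2 also met the rule for higher in RPF, at 2.63 (0.80 to 6.08). Under totals without mitochondrial and abundant genes, ATP5G1 (−0.58) and COX8A (−0.57) lost their RNA calls and ATP5E (0.57) its TE call, and under median-of-ratios scaling UQCRC2 gained one in TE (0.59). No called result changed sign. No paired analysis was possible because each group has 1 library, which also leaves no library to leave out. Depth limits the members at or near 0.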

Other observations

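Of 17 genes that serve mitochondria in general, 0 were higher and 7 lower in RNA in knockout-labelled cells (median −0.52), beside 17.8% lower among all genes. The 4 with the largest change were PHB2, an inner-membrane scaffold protein, at −0.74, with 728 reads in knockout-labelled cells and 1352 in wild type; VDAC1, an outer-membrane channel, at −0.69; TOMM40, the import pore, at −0.68; and SLC25A5, an ADP/ATP carrier, at −0.67. In RPF, 0 were higher and 3 lower, beside 19.0% and 20.1% of all genes, and TOMM40 had 369 reads in knockout-labelled cells and 802 in wild type (−1.12). In TE, 3 were higher and 0 lower, beside 15.7% and 13.9% of all genes, led by SLC25A5 (0.92).

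Of 6 regulators of mitochondrial biogenesis measured in RPF, 1 was higher and 2 lower, beside 19.0% and 20.1% of all genes. In RNA 1 of 7 was higher and 0 lower, beside 16.2% and 17.8% of all genes, and in TE 0 of 6 were called. TFAM, which packages and transcribes mitochondrial DNA, had 440 RPF reads in knockout-labelled cells and 678 in wild type (−0.62). NRF1, a transcription factor for respiratory genes, had an RPF change of −0.65 on 52 reads in knockout-labelled cells and 82 in wild type. PPRC1, a coactivator related to PGC-1, was higher in RNA (0.64) and RPF (0.65). Of 4 genes listed under other symbols, 1 was higher and 0 lower in RNA, and 0 higher and 1 lower in RPF. ATPIF1, the inhibitor of ATP synthase, was higher in RNA (0.86), with 584 reads in knockout-labelled cells and 358 in wild type, and not called in RPF (0.29). C14orf2, a small ATP synthase subunit, was lower in RPF (−0.63).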
